A study of Homo sapiens with 8 samples.

Results

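The genes described here are 35 that process antigens and present them on HLA molecules, taken by name out of 19974 protein-coding genes in the RefSeq table of GRCh38.p14. All 35 names were found in that table. They comprise 5 class I heavy chains (HLA-B, HLA-C, HLA-E, HLA-F and HLA-G), the light chain B2M, 6 class II chains, 4 class II peptide editors, 11 genes that supply or load class I peptides, 3 that serve the class II route, and 5 transcriptional regulators. A gene's locus was its annotated body with 5 kb on both sides, and a gene-end peak was a peak that reached within 1 kb of either annotated end of the gene. The members were taken by name and not by a measured value, although earlier results of these data were known when they were chosen.

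The cells were OPM-2, an established human myeloma line with the t(4;14) translocation, kept for 72 h in 1 of 4 conditions: the solvent DMSO, all-trans retinoic acid at 1 µM (ATRA, which binds the retinoic acid receptors), pomalidomide at 1 µM (POM, which directs the cereblon ubiquitin ligase to degrade IKZF1 and IKZF3), or both (ATRA+POM). All 4 groups are the same line with no genetic change between them. Chromatin immunoprecipitation with sequencing (ChIP-seq) gave 1 ChIP library and 1 input library per treatment, and the series' design text speaks of transcription factor binding but the antibody is not named in the sources used here. With 1 ChIP library per treatment no difference could be set against a spread between replicates, so every comparison below sets values side by side and no test of a treatment was made.

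Class I molecules, a heavy chain bound to B2M, show peptides from the cell's own proteins to cytotoxic T cells, and class II molecules show peptides taken up from outside to helper T cells. Peptides for class I are cut by the proteasome, carried into the endoplasmic reticulum by the TAP transporter, trimmed by ERAP1 and ERAP2, and loaded with the help of calreticulin, calnexin and PDIA3. Transcription of class II genes depends on CIITA, and that of class I genes on NLRC5, which act through the RFX complex (RFX5, RFXAP and RFXANK) and NF-Y on the X and Y boxes of the promoters. Plasma cells usually silence CIITA and with it class II, while they keep class I.

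4 promoters are shown because they carry the motifs of this pathway and differ in whether a peak was listed there. Each runs from 250 bases before to 50 bases after the listed start, is written 5′ to 3′ on the gene's strand, and comes from RefSeq (GRCh38.p14). Capitals mark matches, on either strand, to the Y box (CTGATTGG, bound by NF-Y), to the interferon-stimulated response element (ISRE, GAAA, any 2 bases, then GAAA, bound by IRF factors) and to an NF-kB motif (GGGNNTTCC). The HLA-B promoter is chr6:31357130-31357429 (minus strand), that of B2M is chr15:44711267-44711566 (plus strand), that of PSMB10 is chr16:67936801-67937100 (minus strand) and that of HLA-DRB1 is chr6:32589799-32590098 (minus strand).
HLA-B: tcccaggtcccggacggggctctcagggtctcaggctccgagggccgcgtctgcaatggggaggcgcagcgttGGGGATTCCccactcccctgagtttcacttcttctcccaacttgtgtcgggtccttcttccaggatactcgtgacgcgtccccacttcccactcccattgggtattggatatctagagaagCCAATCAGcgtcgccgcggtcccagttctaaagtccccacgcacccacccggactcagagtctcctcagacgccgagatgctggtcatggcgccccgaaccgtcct
B2M: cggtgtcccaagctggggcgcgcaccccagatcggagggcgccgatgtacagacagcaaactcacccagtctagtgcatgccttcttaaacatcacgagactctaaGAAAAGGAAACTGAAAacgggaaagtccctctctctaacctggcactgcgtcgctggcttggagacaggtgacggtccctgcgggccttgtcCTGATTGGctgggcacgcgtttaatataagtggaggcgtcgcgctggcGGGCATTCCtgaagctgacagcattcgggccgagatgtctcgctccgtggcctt
PSMB10: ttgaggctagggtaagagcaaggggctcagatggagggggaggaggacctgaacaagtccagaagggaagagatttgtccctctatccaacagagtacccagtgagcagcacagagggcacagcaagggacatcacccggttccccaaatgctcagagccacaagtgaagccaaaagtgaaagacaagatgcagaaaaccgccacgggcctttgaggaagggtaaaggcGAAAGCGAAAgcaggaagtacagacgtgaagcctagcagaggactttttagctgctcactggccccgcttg
HLA-DRB1: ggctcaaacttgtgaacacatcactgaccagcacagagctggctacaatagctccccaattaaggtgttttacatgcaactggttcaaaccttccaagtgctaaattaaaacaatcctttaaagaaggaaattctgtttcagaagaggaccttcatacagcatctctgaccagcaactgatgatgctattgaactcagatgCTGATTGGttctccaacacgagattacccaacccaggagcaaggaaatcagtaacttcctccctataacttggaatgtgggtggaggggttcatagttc

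In HLA-B the Y box match lies at −56 to −49 from the start and falls inside the single peak listed there, which was in the DMSO list. Its NF-kB match, at −177 to −169, lies outside that peak. In B2M the Y box match (−52 to −45), a pair of overlapping ISRE matches (−144 to −129) and the NF-kB match (−4 to 4) lie in no peak of any list, because the B2M peaks sit on both sides of the start. In PSMB10 the ISRE match (−21 to −12) is inside the peak of the DMSO, POM and ATRA+POM lists. In HLA-DRB1 the Y box match (−49 to −42) is in no peak.

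Over the 29 members with a promoter entry (none was listed for NLRC5, HLA-DRA, PDIA3, CTSS, CIITA and HLA-E), the Y box was present in 8, or 27.6%, against 5.22% of all 15813 promoters of the same length. Those 8 were B2M, HLA-B, HLA-C, HLA-DMA, HLA-DQB1, HLA-DRB1, HLA-F and RFX5. Its core ATTGG, which every Y box match contains, was found in 19 members (65.5%) against 36.4% of all promoters. The ISRE was present in 6 (20.7%, against 3.18%), namely B2M, HLA-F, PSMB10, TAP1, TAP2 and TAPBP. The X box core AGNAACAG was found in CD74, HLA-DMB, HLA-DOA and TAP1 (13.8%, against 5.27%), and the NF-kB motif in B2M, HLA-B, HLA-DPA1 and TAPBP (13.8%, against 7.42%). TGGGAA, the core that Ikaros proteins such as IKZF1 recognise, was found in 9 members (31.0%) against 22.8%. The retinoic acid receptor hexamer AGGTCA was found in HLA-G alone (3.45%, against 11.8%), and the gamma-activated site TTCNNNGAA in HLA-DQA1 alone (3.45%, against 6.99%). These matches are descriptions of the sequence and show no binding.

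The lists differ in depth, which bears on every count that follows. Recovered from each peak's fold and p, the reads at the summit had medians of 78 (DMSO), 23 (the library labelled ATRA), 72 (POM) and 65 (ATRA+POM), and relative depth was 0.133 in the ATRA-labelled library against 0.927 with POM and 0.902 with ATRA+POM, with DMSO as 1. The lists held 50946, 36742, 54279 and 47193 peaks. When peaks of all lists that share a base were merged into regions, 115 of 25210 regions of the ATRA-labelled list (0.456%) had no DMSO peak, against 32.9% of the POM regions and 27.6% of the ATRA+POM regions. The ATRA-labelled list was therefore close to a subset of the DMSO list, and at the members' loci all 34 of its regions also had a DMSO peak. Whether these libraries are independent of each other was not tested, and every value of the ATRA-labelled list set against DMSO is given under that doubt. All 8 plasma cell markers (SDC1, TNFRSF17, CD38, IRF4, PRDM1, XBP1, SLAMF7 and IKZF3) had a gene-end peak in each list, and none of the 4 markers each for B cells, myeloid cells and epithelial cells did. Of the 4 T cell markers CD2 had one in each list and CD3E had one with POM.

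Gene-end peaks were listed for 13 of the 35 members in the DMSO list, 10 in the list labelled ATRA, 12 in the POM list and 11 in the ATRA+POM list. Over all protein-coding genes the shares were 48.8%, 40.0%, 47.9% and 41.3%. Peaks anywhere in the locus were listed for 13, 11, 12 and 11 members, against 63.4%, 53.2%, 63.9% and 57.8% of all genes. The members' loci held 49, 44, 47 and 42 distinct peaks. Of these, 23, 25, 23 and 23 had their summit nearest to an end of a gene that is not a member. The median gene body was 8496 bp for the members and 24170.5 bp for all genes, and the part of length in the locus counts was not tested. In all 4 lists 10 members had a gene-end peak, against 37.3% of all genes, and 22 members had no peak at the locus in any list. The heat map of peaks by locus shows that the members with peaks fall by role and by chromosome.

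**Figure D1:**
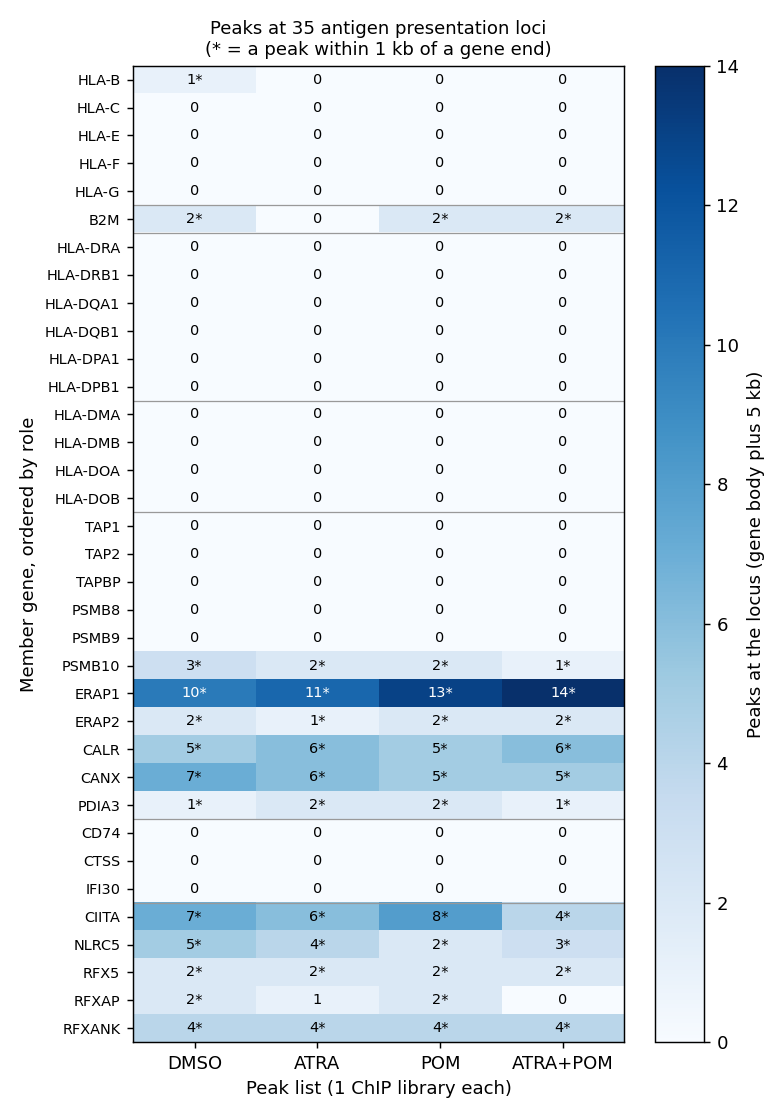
Number of peaks at the locus (gene body plus 5 kb) of each of the 35 members (rows, by role) in the 4 peak lists (columns); the colour scale runs from 0 to 14 peaks and an asterisk marks a peak within 1 kb of a gene end. Nearly all HLA rows read 0, while ERAP1 has 10 to 14 peaks and the regulators at the bottom have peaks in nearly every list.

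By chromosome the contrast was sharp, although this split was chosen after the values were seen. Of the 20 members on chromosome 6, which are all the HLA genes with TAP1, TAP2, TAPBP, PSMB8 and PSMB9, 1 had a peak at its locus and 19 had none in any list. Over all 19974 genes 6409 had none. Of the 15 members on other chromosomes, 12, 10, 12 and 11 had a gene-end peak in the DMSO, ATRA-labelled, POM and ATRA+POM lists, against 48.8%, 40.0%, 47.9% and 41.3% of all genes. CD74, CTSS and IFI30 had none.

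The same lack of peaks extended to genes beside the members. From HLA-F to TAPBP, chr6:29723434-33314078 or 3.59 Mb, the lists held 5, 2, 4 and 2 peaks, which is 1.39, 0.557, 1.11 and 0.557 per Mb. The flanks of the same length on both sides held 42.2, 38.7, 45.1 and 41.1 peaks per Mb, and the rest of chromosome 6 held 18.0, 13.3, 18.8 and 17.3. Of 120 other protein-coding genes in the interval, 0, 0, 2 and 1 had a gene-end peak, against 50.8%, 43.6%, 51.5% and 45.8% of the 909 genes on the rest of chromosome 6. The profile along the chromosome showed that the stretch with few peaks began before HLA-F. The 0.5 Mb bin centred at −3.25 Mb from the middle of the interval held 24, 21, 26 and 25 peaks, and the bin at −2.75 Mb held 1, 1, 1 and 0. At the upper side the bin at 1.75 Mb held 0 in each list and that at 2.25 Mb held 14, 13, 22 and 15.

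**Figure D2:**
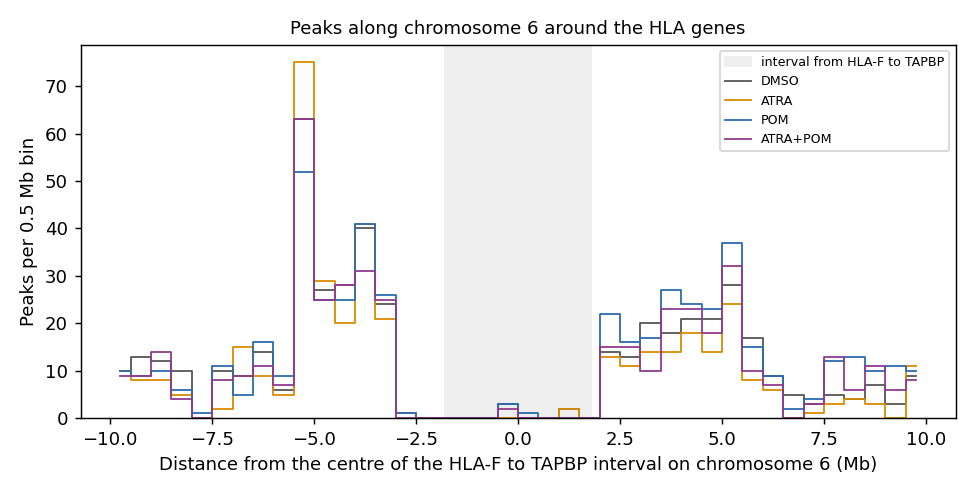
Peaks per 0.5 Mb bin (vertical axis) by distance in Mb from the centre of the HLA-F to TAPBP interval (horizontal axis), 1 line per peak list, with the interval shaded. All 4 lines stay between 0 and 3 peaks per bin inside the shaded interval, and the 4 lists hold 13 to 22 peaks in the bin at 2.25 Mb.

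The build the authors used includes alternate contigs, which for chromosome 6 mostly carry further haplotypes of the HLA region, so that much of this region is present there in several copies. Such contigs of chromosome 6 held 16, 7, 10 and 9 listed peaks, with a highest fold enrichment of 40.6, 18.6, 24.0 and 15.5. The sources used here do not say how reads that match several copies were treated, and its part in the low count at the HLA members was not tested. For the 20 members on chromosome 6, "no peak listed" is therefore the measured statement, and it does not say that nothing was bound.

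Among the class I heavy chains HLA-B had the single peak of the group. It spanned chr6:31357076-31357247, 20 bp from the listed start at its summit, at a fold enrichment of 4.64 (27 summit reads) in the DMSO list. The 10th percentile of summit reads in that list was 28, so this peak lies among its weakest. HLA-C, HLA-E, HLA-F and HLA-G had no peak in any list. Elsewhere in the interval the POM and ATRA+POM lists held a peak 582 bp from an end of MICA, a stress ligand of NK cells that is not a member, with 63 and 23 summit reads.

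The 6 class II chains (HLA-DRA, HLA-DRB1, HLA-DQA1, HLA-DQB1, HLA-DPA1 and HLA-DPB1) and the 4 genes that edit class II peptides (HLA-DMA, HLA-DMB, HLA-DOA and HLA-DOB) had no peak at the locus in any list. The nearest listed peaks to a class II chain lay 14.4 to 15.0 kb from the near end of HLA-DQA1, outside its locus. With DMSO this pair had 68 and 38 summit reads and fold enrichments of 19.5 and 10.997. In the ATRA-labelled list they had 12 and 10 reads, with fold enrichments of 8.99 and 8.19. Neither was listed with POM or with ATRA+POM. The 3 genes that serve the class II route were also without a peak in any list, and these lie outside chromosome 6: CD74, the invariant chain that guides class II molecules to endosomes, CTSS, a protease that cleaves it, and IFI30, a thiol reductase of endosomes. Of the class II output genes, 0 of 13 had a locus peak, against 53.2% to 63.9% of all genes by list. The 6 chains and 4 editors among them lie in the HLA-F to TAPBP interval. There 0, 0, 3 and 1 of 120 other genes had a locus peak in the DMSO, ATRA-labelled, POM and ATRA+POM lists. The share over all genes is therefore a matched background for the 3 genes outside the interval alone.

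B2M, the light chain of every class I molecule, had a peak on each side of its start. The upstream peak (chr15:44711005-44711331) had its summit at −348 bp from the start and 221 bp from an end of PATL2, so that it cannot be assigned to B2M alone. Its fold enrichment was 11.1 (DMSO), 18.0 (POM) and 10.1 (ATRA+POM), with 75, 77 and 33 summit reads. The downstream peak, 610 bp after the start in the DMSO list, had fold enrichments of 14.0, 8.74 and 7.16 with 60, 29 and 23 reads. Neither was listed in the ATRA-labelled library. With DMSO the bases without a peak reached from 190 bp before to 465 bp after the start, and the POM and ATRA+POM lists left nearly the same gap.

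Such a gap was common in these lists. Among genes with a peak within 1 kb of the outermost listed start, a peak covered that start in 52.4% (DMSO), 22.6% (ATRA-labelled), 42.6% (POM) and 22.9% (ATRA+POM). Peaks on both sides with none over the start were seen in 28.3%, 40.6%, 33.9% and 40.4%. Among the members 9, 6, 8 and 7 had a peak there, of which 6, 3, 5 and 3 were covered and 3, 2, 2 and 3 were flanked. CALR was flanked in each of the 4 lists, and B2M in the 3 lists that had its peaks. PSMB10 and RFXANK were covered in all 4 lists. RFX5 was covered in the DMSO, ATRA-labelled and POM lists and flanked in the ATRA+POM list, where the nearest peak edge lay 5 bp from the start.

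The 6 class I supply genes outside chromosome 6 (PSMB10, ERAP1, ERAP2, CALR, CANX and PDIA3) had a gene-end peak in every list, as did 37.3% of all genes. The 5 on chromosome 6 (the transporter subunits TAP1 and TAP2, the loading factor TAPBP and the immunoproteasome subunits PSMB8 and PSMB9) had none. The gene-end peaks of CANX had summits 111 to 419 bp from an end of CBY3 or 367 to 421 bp from one of MAML1. They cannot be assigned to CANX alone. PSMB10, the immunoproteasome subunit encoded outside the HLA region, had its main peak 194 bp before the start, with fold enrichments of 32.1, 22.3, 40.9 and 32.5 and 569, 71, 584 and 239 summit reads in the DMSO, ATRA-labelled, POM and ATRA+POM lists. The locus held 3, 2, 2 and 1 peaks. Those that dropped out of some lists were weak, with 29 reads at 816 bp from the lower end (DMSO alone) and 62 and 23 reads at 1132 bp (DMSO and POM).

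ERAP1 and ERAP2, the aminopeptidases that trim peptides to length, are neighbours on chromosome 5 and share a region. The region at ERAP2's start was the strongest of ERAP2, with fold enrichments of 55.6, 29.5, 65.9 and 40.6 and 381, 58, 547 and 268 summit reads. ERAP1 had 10, 11, 13 and 14 peaks over an annotated body that spans ERAP2 and ends beside LNPEP, so its count partly repeats theirs. Its strongest gene-end peak lay at that shared upper end, with fold enrichments of 64.6, 46.6, 68.4 and 66.4 and 674, 96, 659 and 489 summit reads. On both sides of ERAP1's own listed start, near 734 and −671 bp from it, peaks were listed in all 4 lists, and the upstream one had fold enrichments of 26.02, 14.3, 27.9 and 17.7. A region inside the ERAP1 body (chr5:96844193-96844616) was listed with POM and ATRA+POM alone, with 82 and 72 summit reads. The region next to it (chr5:96844706-96845138) had 47 (DMSO), 130 (POM) and 113 reads (ATRA+POM), and fold enrichments of 5.11, 15.8 and 17.3. Both lie over 31 kb from the nearest annotated gene end, and the second had a higher fold enrichment in both lists with POM than with DMSO.

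The 3 chaperones of the endoplasmic reticulum were marked in each list. CALR, which encodes calreticulin, held 5, 6, 5 and 6 peaks, of which those farthest upstream lay beside an end of FARSA. Its peak after the start, with the DMSO summit at 486 bp, had fold enrichments of 17.4, 14.3, 17.1 and 11.2, and the peak before the start had fold enrichments of 8.95, 6.42, 5.14 and 3.40. CANX, which encodes calnexin, held 7, 6, 5 and 5 peaks. The strongest by fold, at −350 bp from its listed start in the DMSO list, had fold enrichments of 63.4, 26.1, 34.1 and 22.1 with 224, 38, 260 and 109 summit reads. The DMSO fold was the highest there although POM had more reads. The CANX peaks present with DMSO and missing elsewhere were beside an end of MAML1, with 45 and 20 reads. PDIA3, a disulphide isomerase of the loading complex, had fold enrichments of 15.8, 8.99, 23.1 and 11.4 with 86, 12, 99 and 51 reads at its lower end.

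All 5 regulators had a peak at the locus in the DMSO, ATRA-labelled and POM lists, and 4 did in the ATRA+POM list. Over all genes the locus shares were 63.4%, 53.2%, 63.9% and 57.8%. Of the 5, a gene-end peak was listed for 5, 4, 5 and 4, against 48.8%, 40.0%, 47.9% and 41.3% of all genes. The member that differed was RFXAP, the RFX-associated protein. Its region after the start (chr13:36819249-36820979) had fold enrichments of 11.1 (DMSO), 6.88 (ATRA-labelled) and 15.0 (POM), with 82, 15 and 77 summit reads, and no peak in the ATRA+POM list. The ATRA-labelled peak lay 1351 bp from the start and so was not counted as a gene-end peak. A second RFXAP peak 190 bp before the start was listed with DMSO alone, with 55 reads.

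RFX5, the DNA-binding subunit, had a pair of strong peaks at its start in each list. The upstream one, 335 bp before the start, had 1150, 200, 1210 and 355 summit reads and fold enrichments of 18.0, 21.0, 40.01 and 10.99. With POM it had nearly the reads of DMSO and over 2 times its fold enrichment, and with ATRA+POM it was the lowest of the 4 in fold. The recovered local background of this peak was 62.9 reads with DMSO and 29.3 with POM. The peak 126 bp after the start had fold enrichments of 17.3, 17.2, 16.3 and 7.68, with 837, 126, 426 and 231 summit reads. There POM was close to DMSO in fold, at fewer reads and a lower local background (25.2 against 47.5). RFXANK held 4 peaks in each list. The one 727 bp after its lower end had fold enrichments of 24.1, 18.6, 26.3 and 13.4 with 513, 86, 316 and 151 reads, and the one before that end had 25.1, 13.0, 31.9 and 14.2 with 256, 25, 119 and 81 reads. In the DMSO list the latter lay 119 bp from an end of BORCS8-MEF2B. The peak at the upper side lay 139 bp from an end of NR2C2AP. Neither can be assigned to RFXANK alone.

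CIITA, the coactivator that class II transcription depends on, carried some of the strongest peaks of the whole set. No peak was listed at the HLA class II genes, but these lie in the interval where hardly any gene had one. Setting them against CIITA therefore does not say that nothing was bound there. A region 15.5 kb into the gene from its lower end (chr16:10880624-10882473) had fold enrichments of 49.8 (DMSO), 49.0 (ATRA-labelled), 58.2 (POM) and 28.5 (ATRA+POM), with 1108, 188, 1412 and 692 summit reads. Nearer the lower end the lists differed. At 10.7 kb the DMSO and POM lists held a peak (90 and 75 reads), at about 11.5 kb the DMSO, POM and ATRA-labelled lists did (107, 43 and 17 reads), and the ATRA+POM list held neither. At 5.53 kb a peak was listed with POM and with ATRA+POM alone (chr16:10871361-10871927, fold enrichments of 14.4 and 7.44, 73 and 42 reads). The remaining CIITA peaks crowd at the upper end, with summits 95 to 1391 bp from an end of DEXI or CLEC16A, so they cannot be assigned to CIITA. That includes its gene-end peak, 226 bp from an end of DEXI, with fold enrichments of 8.67, 17.4, 16.8 and 5.02 and 124, 32, 65 and 28 reads. In all CIITA held 7, 6, 8 and 4 peaks.

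**Figure D3:**
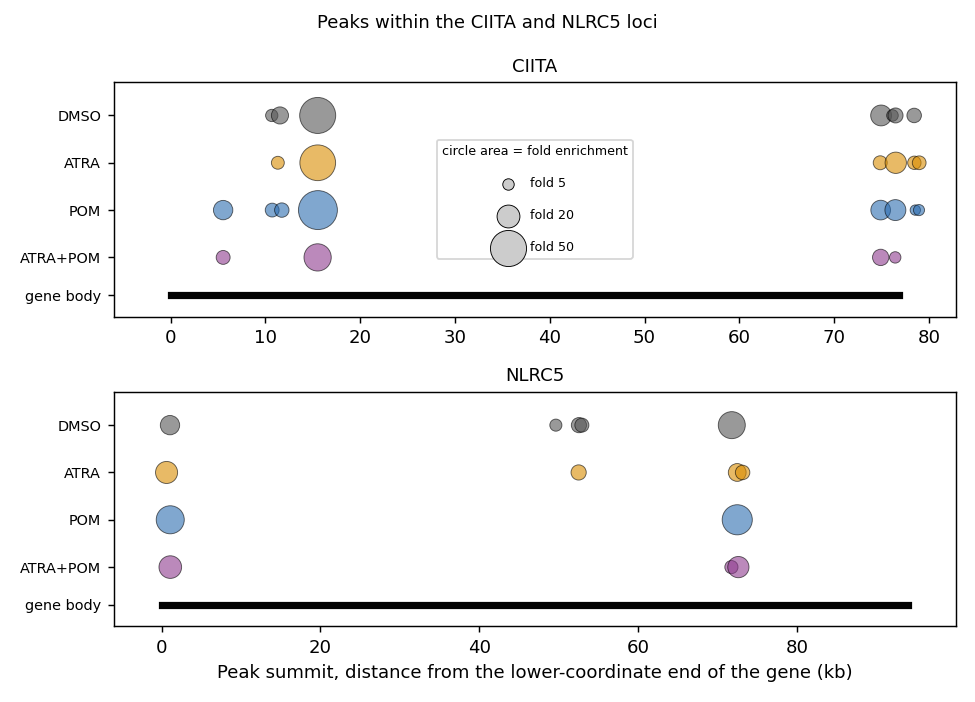
Peak summits across CIITA (top) and NLRC5 (bottom) in the 4 lists, by distance in kb from the gene's lower-coordinate end; circle area is the fold enrichment of the peak and the black bar is the annotated gene body. In CIITA the large circle at 15.5 kb is present in all 4 lists and the one at 5.53 kb in POM and ATRA+POM, and in NLRC5 the circles near 50 kb are in the DMSO and ATRA-labelled lists.

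NLRC5, the coactivator of class I genes, had its gene-end peak after the lower end (chr16:56989504-56991242), with its summit at 1065 to 1102 bp in the DMSO, POM and ATRA+POM lists and at 634 bp in the ATRA-labelled one. It had fold enrichments of 14.3, 18.7, 30.2 and 19.6 and 278, 53, 571 and 222 summit reads. The POM peak was the highest of the 4 both in fold and in reads. A second region about 72.5 kb along the gene had fold enrichments of 28.0, 12.2, 34.8 and 17.3. Between them DMSO had 3 weaker peaks, at 49.6, 52.6 and 52.9 kb with 80, 95 and 77 reads. The ATRA-labelled list held 1 of these, at 52.6 kb with 19 reads, and neither POM nor ATRA+POM held any. NLRC5 thus had 5, 4, 2 and 3 peaks.

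Pairs of lists were then compared over the gene-end calls. The 3 comparisons with DMSO share that library, and so do those with ATRA+POM, so they are not independent. No member gained a gene-end peak against DMSO, in 0 of 22 members without one there, whether ATRA-labelled (0.0685% of such genes overall), POM (3.79%) or ATRA+POM (1.75%). Of these 22, 19 lie in the HLA-F to TAPBP interval, where 0, 0, 2 and 1 of 120 other genes had a gene-end peak by list. For those 19 the shares over all genes are not a matched background, which also bears on the gains of ATRA+POM given below. Of the 13 with one in DMSO, HLA-B, B2M and RFXAP lacked it in the ATRA-labelled list (18.2% of such genes overall), HLA-B with POM (5.93%), and HLA-B and RFXAP with ATRA+POM (17.3%). Against POM, ATRA+POM lacked 1 of 12, RFXAP (14.5%), and gained 0 of 23 (0.653%). Against the ATRA-labelled list, ATRA+POM gained 1 of 25, B2M (6.60%), and lost 0 of 10 (6.59%).

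The lost members were those with few reads. Genes were split into 4 equal classes by the summit reads of the DMSO gene-end peak. In the lowest class (14 to 91 reads) 63.3% lacked one when ATRA-labelled, 20.7% in the POM list and 54.5% in the ATRA+POM list. HLA-B, B2M, PDIA3 and RFXAP were the members in it. In the highest class (369 to 4614 reads), which holds PSMB10, ERAP1, ERAP2, RFX5 and RFXANK, the shares were 0.738%, 0.369% and 1.43%.

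Counts of peaks at the locus moved both ways. With POM 3 of the 13 members with a locus peak in either list had more than with DMSO (ERAP1, PDIA3 and CIITA, against 34.2% of such genes) and 4 had fewer (HLA-B, PSMB10, CANX and NLRC5, against 32.0%). With ATRA+POM 2 had more (ERAP1 and CALR, against 31.1%) and 6 had fewer (HLA-B, PSMB10, CANX, CIITA, NLRC5 and RFXAP, against 45.5%). In the ATRA-labelled list 3 had more (ERAP1, CALR and PDIA3, against 23.2%) and 8 had fewer (against 53.3%).

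Over the merged regions, 30 of the 50 at the members' loci (60%) were listed in all 4 libraries, against 28.8% of all 67328 regions. Those 67328 were not limited to gene loci, so the shares set side by side here come from unlike sets of regions. DMSO alone held 8 (16%, against 16.3%). POM alone held 0, against 14.3%, and ATRA+POM alone held 0, against 5.23%. The 2 regions listed with POM and ATRA+POM but not with DMSO or in the ATRA-labelled list (4%, against 9.60%) were that of CIITA at 5.53 kb and that inside ERAP1. The 8 of DMSO alone belonged to RFXAP, CIITA, NLRC5, PSMB10, CANX and HLA-B and had 20 to 80 summit reads.

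Where both lists of a pair had a gene-end peak, the fold enrichments of the strongest by −log10 q were compared as a log2 ratio, from which the median ratio of all such genes was subtracted. That median was 0.07 for POM over DMSO, −0.85 for ATRA+POM over DMSO and −0.61 for the ATRA-labelled list over DMSO. Intervals are 95% exact binomial intervals and cover the counting error of the summit reads only, not that of the local background nor the spread between cultures.

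**Figure D4:**
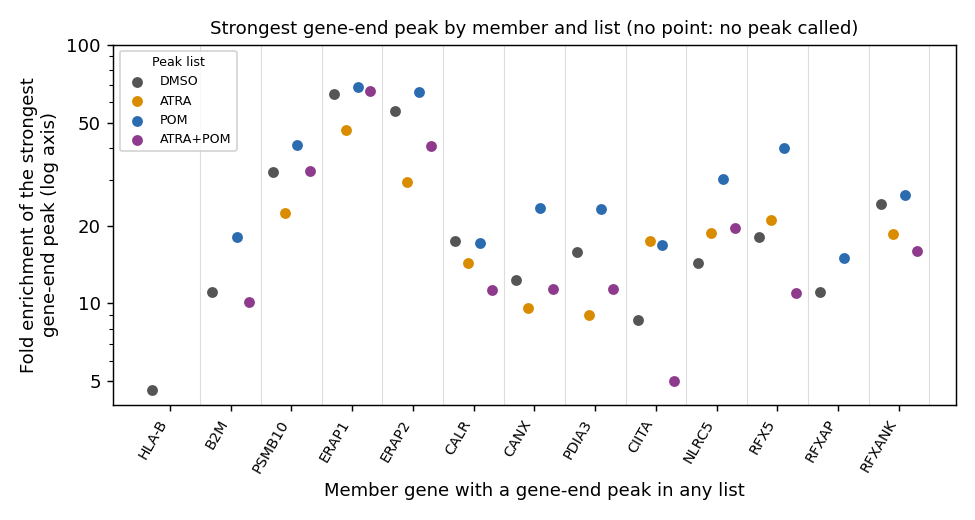
Fold enrichment of the strongest gene-end peak by −log10 q (log axis) for the 13 members that have one in any list, coloured by peak list; no point means no peak was listed. The ERAP1 and ERAP2 points are the highest, and the HLA-B point is the single one of its column at 4.64. The POM point is the highest of its column for most members, among them RFX5 (40.01) and NLRC5 (30.2), but not for CALR and CIITA.

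For POM over DMSO 12 members could be compared, with a median of 0.43 and 11 above 0. RFX5 (1.08, interval 0.97 to 1.20) and NLRC5 (1.01, 0.80 to 1.22) were at least 2-fold higher, a size reached by 6.76% of all genes, and none was 2-fold lower (7.60%). CIITA (0.89, 0.42 to 1.32), CANX (0.85, 0.41 to 1.29) and B2M (0.64, 0.16 to 1.12) came next, and the lowest was CALR at −0.09 (−0.53 to 0.34). The RFX5 ratio is that of the peak before its start. At the RFX5 peak after the start the fold enrichment was 16.3 with POM and 17.3 with DMSO, at 426 and 837 summit reads. The B2M ratio is that of the upstream peak shared with PATL2, and at the downstream peak the fold enrichment was lower with POM, 8.74 against 14.0. NLRC5 lies at the threshold: with each list's stronger 50% (0.95), equal numbers of peaks (0.98), a fold enrichment of at least 10 (0.98), the 3 kb window (0.99) or summits within 1 kb of each other (0.997) it was just short of 2-fold and RFX5 alone was called. With the 3 kb window CIITA's value turned to −0.25, since another peak was then the strongest. For NLRC5 the summit reads were also higher with POM, 571 against 278, whereas for RFX5 they were 1210 against 1150 and for CIITA 65 against 124. For CIITA the fold was therefore higher with POM at fewer summit reads. For CANX the strongest peaks of the 2 lists lie 54 kb apart, at opposite ends of the gene, so its ratio does not compare 1 site.

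For ATRA+POM over DMSO all 11 members compared were above the median of all genes, with a median of 0.40. CANX is among the 11, but here too its strongest peaks lie 54 kb apart, so its ratio does not compare 1 site. With summits within 1 kb of each other 10 members remained, with a median of 0.38. NLRC5 (1.305, 1.04 to 1.56) was at least 2-fold higher, as were 8.21% of all genes, none was 2-fold lower (8.14%), and ERAP1 (0.89, 0.72 to 1.06) and PSMB10 (0.87, 0.65 to 1.09) followed. The ERAP1 ratio is that of the peak at its upper end, which is also LNPEP's and gave LNPEP the same 0.89. Upstream of ERAP1's own listed start the fold enrichment was 26.02 with DMSO and 17.7 with ATRA+POM. Downstream of that start it was 7.82 and 11.2. These fold enrichments are given as listed, without the subtraction of the median ratio (−0.85), and so are not on the scale of the 0.89. RFX5 (0.14, −0.04 to 0.31) and CIITA (0.06, −0.62 to 0.62) had intervals that include 0. Without the subtraction of the median 3 of the 11 were above 0 and NLRC5 was at 0.45, so their place is relative to a lower ratio over all genes.

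In the ATRA-labelled list over DMSO 8 of 10 members were above 0, with a median of 0.24. CANX is among the 8, and its strongest peaks again lie 54 kb apart. CIITA, at the peak beside DEXI, was at least 2-fold higher (1.62, 0.98 to 2.16, a size reached by 1.35% of all genes), none was 2-fold lower (3.51%), and NLRC5 (0.99, 0.52 to 1.397) and RFX5 (0.83, 0.60 to 1.04) came next. These rest on 32, 53 and 200 summit reads. Without the subtraction of the median 3 of the 10 were above 0.

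For ATRA+POM over POM 7 of 11 members were above 0 (median 0.21) and none reached 2-fold in either direction (5.01% of all genes higher, 6.14% lower). RFX5 was the lowest at −0.93 (−1.11 to −0.76), then CIITA at −0.81 (−1.53 to −0.18). ERAP1 was the highest at 0.89 (0.72 to 1.06), at the upper-end peak that it shares with LNPEP. Without the subtraction of the median (−0.93) 0 of the 11 were above 0 and 4 were at least 2-fold lower, namely RFX5, CIITA, CANX and PDIA3. For ATRA+POM over the ATRA-labelled list CIITA was at −1.56 (−2.35 to −0.79), at least 2-fold lower as were 8.20% of all genes, and PSMB10 was the highest of 10 members at 0.79 (0.41 to 1.20), with none 2-fold higher (7.27%).

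**Figure D5:**
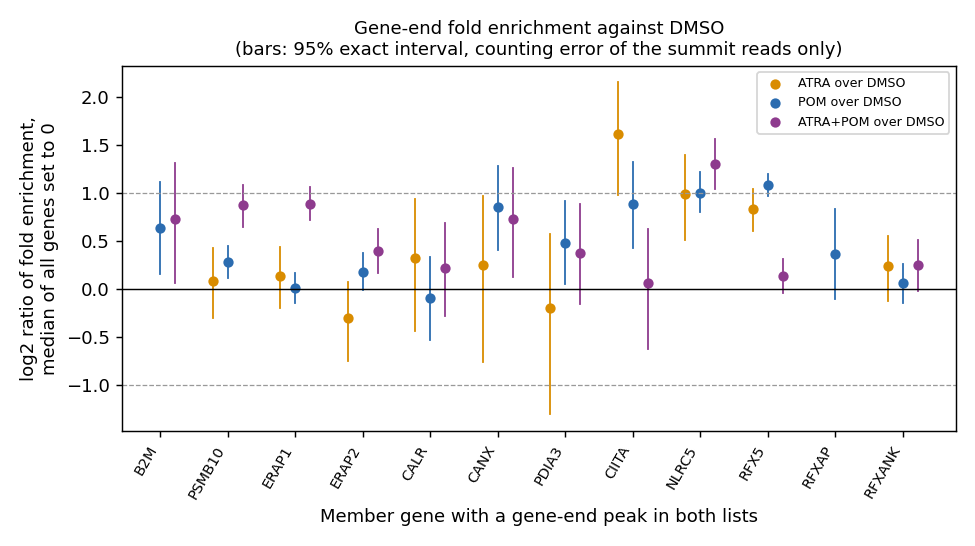
Centred log2 ratio of gene-end fold enrichment over DMSO (vertical axis) for each member with a gene-end peak in both lists, for the ATRA-labelled, POM and ATRA+POM lists; bars are 95% exact intervals for counting error of the summit reads and dashed lines mark 2-fold. NLRC5 lies near or above the upper dashed line in all 3, RFX5 lies above it with POM (1.08) and near 0 with ATRA+POM (0.14), and most other members lie between 0 and 1.

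Of 38 further genes of the pathway that are not members, such as proteasome activators, cathepsins, interferon signalling and NF-Y subunits, 27, 24, 26 and 25 had a gene-end peak and 23 had one in all 4 lists. Over all protein-coding genes the shares were 48.8%, 40.0%, 47.9% and 41.3%, and 37.3% in all 4 lists. Those without any locus peak were 7: the class II copies HLA-DRB5, HLA-DQA2 and HLA-DQB2 on chromosome 6, and the lysosomal proteases CTSL, CTSD, CTSH and CTSF. The calls that differed among DMSO, POM and ATRA+POM were those of the interferon gamma receptor chains. IFNGR1 had a gene-end peak with 96 reads (DMSO), 15 (ATRA-labelled) and 50 (POM), and none in the ATRA+POM list. IFNGR2 had one with DMSO alone, with 15 reads.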

How the data were processed

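ChIP-seq was done in OPM-2 cells, 1 ChIP and 1 input library for each of 4 treatments, 8 samples in all, with groups taken from the labels' treatment. Each ChIP library has 1 deposited peak list, on hg38 per the submitters' processing notes. For aligner, peak caller and antibody nothing is given in the sources used here. Each deposited peak has a score, which is 10 times its −log10 p cut to a whole number, a fold enrichment, which is the authors' ratio of summit to local background within that library, and the −log10 p and −log10 q, whose lowest −log10 p was 5.02. Fold and p gave the summit reads as whole numbers within 0.02 for 100% of DMSO, POM and ATRA+POM peaks (to 3 digits) and 99.98% of ATRA-labelled peaks, an inference from the values and not a stated depth. Relative depth was read from the lowest background value shared by 20 or more peaks.

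Peaks were assigned to genes by any overlapping base. Genes, starts and promoters came from RefSeq tables of GRCh38.p14, the table gives a listed start for 29 of the 35 members, and no genome sequence was used. A rule was planned for the members given single peak values. It took those whose gene-end call differs between lists or whose locus count differs by 2 or more between DMSO, POM and ATRA+POM. To these it added the 5 with the strongest peaks by −log10 q, and CIITA, NLRC5, B2M and CD74. CALR, PDIA3 and RFXANK are given single peak values as well, although they do not meet this rule. The other members are given by counts. The members, the gene lists and the alternatives were chosen with earlier results of these data known, so no count here is independent evidence. There are no replicates, so no p-value was computed, and intervals are exact Clopper-Pearson intervals at 95%. The alternatives were stronger peaks, an equal number of peaks, a fold enrichment of at least 10, other windows, summits in place of overlaps, no centring and merging within 500 bp. The steps were tested on simulated data, where 100.0% of 3000 summit reads were recovered, and locus counts equalled those of bedtools for 100.0% of 19974 genes. The scripts ran in Python 3.11.15 with pandas 2.3.3, numpy 2.4.6, matplotlib 3.10.9 and scipy 1.17.1.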

Additional observations from a re-analysis of the deposited data

Results flagged for a closer look

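Peaks on the alternate contigs of chromosome 6, which no count above uses, numbered 16 (DMSO), 7 (ATRA-labelled), 10 (POM) and 9 (ATRA+POM). There is no control sample for them, and they were not assigned to genes because the gene table used here lists positions on the primary chromosomes alone.

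The gene-end peaks of CIITA and RFX5 moved in opposite directions with POM depending on the library it was compared with. For CIITA, at the site beside DEXI, the centred log2 ratio was 0.89 for POM over DMSO and −1.56 for ATRA+POM over the ATRA-labelled list. For RFX5, at the peak before its start, it was 1.08 and −0.69. With 1 library per treatment this difference was not tested, and the ATRA-labelled library has a relative depth of 0.133.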

How the results depend on the processing

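Of 215 recomputed values 170 stayed within the spread allowed for them, 42 moved beyond it and 3 turned the direction of most members. The counts of members with a gene-end or locus peak kept within 1.5 times under every alternative run. With a fold enrichment of at least 10, distinct peaks at the loci fell to 25 (ATRA-labelled) and 26 (ATRA+POM), with the stronger 50% of each list to 22 and 25, and with the gene body alone to 27 and 27. Merging within 500 bp gave 19 regions in all 4 lists, 2 with DMSO alone and 1 with POM and ATRA+POM alone. The loss of HLA-B's gene-end peak with POM rests on a weak DMSO peak: the members lost with POM were 0 with the stronger 50%, an equal number of peaks or a fold enrichment of at least 10. Members lost with ATRA+POM against DMSO were 4 with the stronger 50% and 1 with a fold of at least 10, and against POM 4, and 2 with either an equal number or a fold of at least 10. Against the ATRA-labelled list 1 member was lost with each of the stronger 50%, an equal number, a fold of at least 10, the 3 kb window and summits in the window. Members gained at a fold of at least 10 were 1 (ATRA-labelled over DMSO), 1 (POM over DMSO) and 3 (ATRA+POM over the ATRA-labelled list), and summits in the window gave 1 for the ATRA-labelled list.

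Members at least 2-fold higher with POM than with DMSO were 1 under 5 settings: the stronger 50%, an equal number, a fold of at least 10, the 3 kb window, and summits within 1 kb of each other, which was chosen after seeing the data. In each RFX5 was kept, at the peak before its start, and NLRC5 was lost. CIITA's 2-fold values beside DEXI were the least stable: the ATRA-labelled count over DMSO became 0 with a fold of at least 10 and with the 3 kb window, and the lower count in ATRA+POM over the ATRA-labelled list became 0 under those settings, the stronger 50% and an equal number. Those 3 came without centring: members above 0 became 3 of 10 (ATRA-labelled over DMSO), 3 of 11 (ATRA+POM over DMSO) and 0 of 11 (ATRA+POM over POM), with medians of −0.37, −0.45 and −0.72; none was 2-fold higher with ATRA+POM than with DMSO (0), and 4 were 2-fold lower with ATRA+POM than with POM, against 1 with a fold of at least 10. Members above 0 in ATRA+POM over the ATRA-labelled list were 4 with the stronger 50% and 4 with a fold of at least 10. The causes were not tested. No paired analysis was possible because each treatment has 1 ChIP library, and for the same reason none could be left out. The ATRA-labelled library, with a median of 23 summit reads, limits what a missing peak there can show.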
